A study of Homo sapiens with 16 samples.

Results

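The 6 long non-coding RNAs PINCR, PURPL, MIR34AHG, NEAT1, TP53TG1 and LINC-PINT have each been tied to the transcription factor p53, and they were followed through TPX2 knockdown in IMR32 cells. IMR32 is an established human neuroblastoma line, listed in the labels as a neuroblast. TPX2 is a spindle assembly factor that activates the mitotic kinase Aurora A. The design held 4 libraries for each of 3 TPX2 siRNAs (si45, si46 and si47) and 4 for siNTC, the control siRNA. All groups were of the same line with no further allele or agent named, and the column headers give 48 h for every library. Members were the rows whose Ensembl identifiers carry these 6 symbols. All 6 were found among 58787 genes, and all 6 were among the 14193 genes with enough counts to be tested. They were chosen by their counts in these same 16 libraries, knockdown against siNTC, so their comparison with siNTC is a description without a test. The labels do not say whether replicates came from separate cultures, so each p-value measures only the spread between these libraries.

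p53 binds a DNA element made of a pair of decamer half-sites and switches on genes of cell cycle arrest, DNA repair and apoptosis. Some of its targets are long non-coding RNAs, transcripts without a protein product that act as scaffolds, as binding partners of proteins or as precursors of small RNAs. In neuroblastoma the best known is the host transcript of miR-34a, a microRNA that represses MYCN and several cell cycle genes. IMR32 carries amplified MYCN.

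Libraries held 5318159 to 7864343 counts, with the 6 RNAs taking 0.0116% to 0.0518% of them. TPX2 stood at 327 ± 27.1 CPM (counts scaled to library size; mean ± SD, n = 4) in siNTC and at 91.6 ± 19.8 with si45, 81.7 ± 14.3 with si46 and 71.5 ± 3.37 with si47, and no knockdown library reached a control library. All 10 adrenergic neuroblast markers averaged at least 10 counts, with summed levels of 5670 to 6155 CPM in siNTC, 5816 to 6777 with si45, 6168 to 7197 with si46 and 6317 to 7420 with si47. Within that sum 2 markers rose and 1 fell in the mean of the siRNAs, named after their values were seen: CHGA rose by 0.67 and HAND2 by 0.23 on the log2 scale, and DBH fell by 0.56 (edgeR adjusted p = 0.0431, 0.0193 and 1.27e-05). Of 8 mesenchymal markers 3 reached that mean, at 40.8 to 71.8, 37.3 to 54.3, 44.3 to 91.7 and 32.4 to 69.3 summed CPM in the same order of groups, and TWIST2 was at 0 throughout. No immune or endothelial marker of 6 did, their sum was at most 3.05 CPM, and CD3E was at 0. The part of these levels in the results was not tested. A knockdown that changed the mix of cells and one that changed RNA per cell cannot be told apart in bulk libraries.

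To show sequence that bears on p53, the RefSeq promoter windows (GRCh38.p14, 250 bases before to 50 after each gene's start) were searched on both strands for 2 copies of the 10-letter p53 half-site, separated by 0 to 13 bases. Windows were found for PURPL, MIR34AHG, TP53TG1 and LINC-PINT and for LNCTAM34A. LNCTAM34A is a non-coding RNA that starts close to the RefSeq start of MIR34AHG on the opposite strand. A full match of 20 letters occurred in the windows of PURPL and LNCTAM34A, both without a spacer. They are shown with 5 bases on either side and with the CNNG core of each half-site in capitals.
PURPL, chr5:27472165-27472184, plus strand: gcccagggCTTGtctgggCATGcccacagt
LNCTAM34A, chr1:9182144-9182163, plus strand: gctcggaaCAAGcccaggCAAGcccaggca
The PURPL match began 127 bases before the start of the gene. The LNCTAM34A match began 60 bases before that gene. It lay 175 to 194 bases downstream of the RefSeq start of MIR34AHG, position 9182338 of chromosome 1, and outside the MIR34AHG window. The GENCODE span of MIR34AHG, used for positions further on, starts further upstream, at position 9198906 on the minus strand. Full matches were held by 10 of 35116 windows (0.0285%). The best matches in the windows of MIR34AHG and TP53TG1 had 16 of 20 letters, and those in the 4 windows of LINC-PINT had 14 to 16; 35.4% of all windows held 16 or more. A match of letters is no measure of binding.

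MIR34AHG contains the miR-34a hairpin, 30561 bases downstream of its RefSeq start. Both mature strands are given as RefSeq lists them, with the seed (bases 2 to 8) in capitals, since the seed decides which messages the microRNA can pair with.
hsa-miR-34a-5p, chr1:9151735-9151756, minus strand: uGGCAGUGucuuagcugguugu
hsa-miR-34a-3p, chr1:9151693-9151714, minus strand: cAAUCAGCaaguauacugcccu
The DNA letters that pair with the 5p seed are CACTGCC. The 3′ UTR of MYCN (transcript MYCN-201, 910 bases) held them at positions 23 and 581, and that of MYB (MYB-242) at position 1405, shown here with the match in capitals because the levels of both genes are reported further on.
MYCN, position 23: aactggacagtCACTGCCactttgcacat
MYCN, position 581: actaattcttaCACTGCCtgtatacttta
MYB, position 1405: tgatagccagtCACTGCCttaagaacatt
The counts are of transcript 3′ ends, and mature miR-34a itself was not analysed here.

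PINCR, PURPL and MIR34AHG were nearly silent in control cells and were clearly counted in every library with a TPX2 siRNA. NEAT1 stood at 2.07 times its control level after depth correction, with wide spread between libraries, and TP53TG1 and LINC-PINT overlapped with the control range. Against siNTC, 3 of the 6 RNAs were called higher and 0 lower by edgeR's quasi-likelihood test (adjusted p under 0.05), for the mean of the siRNAs as for si45, si46 and si47 singly, comparisons that share the same control libraries. Over all tested genes, 3.61% were called higher and 3.53% lower for the mean of the siRNAs; for si45, si46 and si47 the shares were 1.01%, 2.14% and 4.91% higher and 0.324%, 1.25% and 4.83% lower. The calls belong to the contrast that chose these RNAs and nothing is read from them. In the same 3 RNAs all 12 knockdown libraries were above all 4 control libraries, as in 1.49% of all tested genes.

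**Figure D1:**
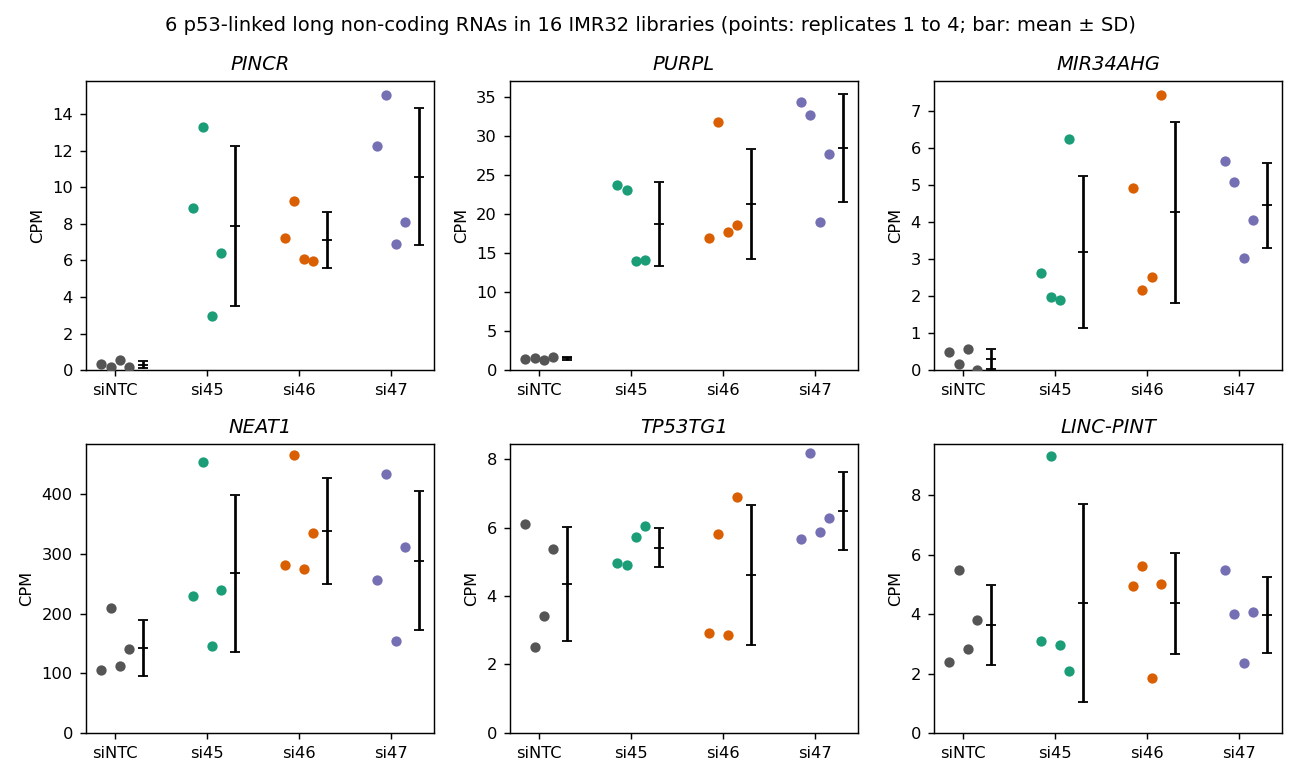
Level of each of the 6 RNAs in CPM (vertical axis, from 0, scaled separately per panel) in the 16 libraries by siRNA (horizontal axis); points are replicates 1 to 4 from left to right and bars show mean ± SD. PINCR, PURPL and MIR34AHG have no knockdown library at or below a control library, whereas NEAT1, TP53TG1 and LINC-PINT overlap with siNTC.

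PURPL (ENSG00000250337, GRCh38 chr5:27472292-27496401, plus strand, 6 annotated transcripts of 458 to 1610 bases) limits p53 levels in unstressed cells and is itself induced by p53. Its counts in siNTC replicates 1 to 4 were 9, 10, 7 and 10. With si45 they were 153, 151, 81 and 75, with si46 134, 175, 105 and 100, and with si47 219, 180, 113 and 164. The lowest knockdown library thus held 75 counts where the highest control held 10. In CPM the means were 1.52 ± 0.176 in siNTC, 18.8 ± 5.38 with si45, 21.3 ± 7.07 with si46 and 28.5 ± 6.91 with si47 (SD, n = 4 each). The fitted difference from siNTC was 3.87 on the log2 scale (SE 0.267) for the mean of the siRNAs, and 3.62, 3.78 and 4.21 for si45, si46 and si47. Summed over libraries, 1650 counts stood against 36, a depth-corrected ratio of 15.0 (95% interval 10.8 to 21.5). This interval and those below are exact, from counting error only, and reads without molecular identifiers are not independent molecules.

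PINCR (ENSG00000224294, chrX:43176994-43226598, plus strand, 1 transcript of 2228 bases) is induced by p53 after DNA damage and binds the RNA-binding protein Matrin 3. Control libraries held 2, 1, 3 and 1 counts. Counts with si45 were 57, 87, 17 and 34, with si46 57, 51, 36 and 32, and with si47 78, 83, 41 and 48. Every knockdown library was above the controls, but within si45 the lowest and highest libraries were 2.95 and 13.3 CPM, and the coefficient of variation there was 55.2% where counting error alone gives 14.3%. Means were 0.304 ± 0.190 CPM in siNTC, 7.88 ± 4.35 with si45, 7.13 ± 1.54 with si46 and 10.6 ± 3.76 with si47. The fitted log2 difference was 4.73 (SE 0.467), or 4.65, 4.49 and 5.06 by siRNA. The ratio of 621 to 7 counts after depth correction was 29.0, and its interval of 14.0 to 72.4 shows how little the few control counts fix its size.

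MIR34AHG (ENSG00000228526, chr1:9148011-9198906, minus strand, 4 transcripts of 409 to 4457 bases) is the precursor transcript of miR-34a. Its control counts were 3, 1, 3 and 0. They were 17, 13, 11 and 33 with si45, 39, 12, 15 and 40 with si46, and 36, 28, 18 and 24 with si47. All knockdown libraries lay above the controls. After depth correction the 3 highest were si46 replicate 4, si45 replicate 4 and si47 replicate 1, at 7.45, 6.24 and 5.66 CPM. Mean levels were 0.301 ± 0.268, 3.19 ± 2.06, 4.27 ± 2.45 and 4.46 ± 1.16 CPM in siNTC, si45, si46 and si47. The fitted log2 difference was 3.63 (SE 0.568), or 3.32, 3.76 and 3.82 by siRNA, and 286 against 7 counts gave a ratio of 13.4 (6.40 to 33.5).

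LNCTAM34A (ENSG00000234546), the RNA whose start is close to the RefSeq start of MIR34AHG, lies inside the annotated span of MIR34AHG on the other strand. It had 1, 0, 0 and 2 counts in siNTC, 20, 7, 11 and 14 with si45, 17, 9, 13 and 9 with si46, and 8, 18, 6 and 30 with si47. Its fitted log2 difference from siNTC was 3.93 (SE 0.727) in the mean of the siRNAs. The 162 against 3 counts gave a ratio of 17.6 (5.93 to 86.5). With so few control counts it passed the low-count filter only through knockdown libraries, and it overlaps a chosen RNA. Its comparison with siNTC is therefore also a description without a test. The counts of these RNAs did not always go together. With si47, replicate 1 had 36 counts of MIR34AHG and 8 of LNCTAM34A, and replicate 4 had 24 and 30. With si46, replicate 1 was high in both, at 39 and 17. The way strand was used in counting is not given in the sources used here, so reads of the overlapping pair cannot be told apart with certainty.

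NEAT1 (ENSG00000245532, chr11:65422774-65445540, plus strand, 8 transcripts of 512 to 22743 bases) is the architectural RNA of paraspeckles, nuclear bodies that hold RNA and RNA-binding proteins. Its siNTC counts were 657, 1337, 596 and 812. With si45 they were 1479, 2975, 839 and 1266, with si46 2220, 2563, 1629 and 1795, and with si47 1635, 2388, 913 and 1840. After depth correction 10 of 12 knockdown libraries were above every control, all 4 with si46 and 3 of 4 with either si45 or si47. The exceptions were replicate 3 of si45 and of si47, at 145 and 153 CPM, between the control libraries of 141 and 209 CPM. Set against the siNTC library of the same replicate number, every knockdown library was higher, at 1.29 to 2.67 times its level. What a number shares is not in the labels, and siNTC with any siRNA did not meet the rule for pairing given in the processing section. These same-number ratios are therefore a description only. Group means were 142 ± 47.3 CPM in siNTC, 267 ± 132 with si45, 339 ± 89.0 with si46 and 289 ± 117 with si47, and the fitted log2 difference was 1.06 (SE 0.332), or 0.91, 1.25 and 1.02 by siRNA. Counting error was small here, 2.21% to 3.43% of a library's level, and the observed coefficients of variation were 26.2% to 49.3%. The 3′ counts do not separate its short and long isoforms.

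TP53TG1 (ENSG00000182165, chr7:87325225-87345515, minus strand, 7 transcripts of 439 to 855 bases) was named for its induction by p53 and binds the protein YBX1. Its counts were 38, 16, 18 and 31 in siNTC, 32, 32, 33 and 32 with si45, 23, 32, 17 and 37 with si46, and 36, 45, 35 and 37 with si47. Only 3 of 12 knockdown libraries were above all controls after depth correction, and 0 were below. Means were 4.34 ± 1.67 CPM in siNTC, 5.41 ± 0.570 with si45, 4.62 ± 2.05 with si46 and 6.49 ± 1.14 with si47. The log2 difference was 0.32 (SE 0.273), and the ratio of 391 to 103 counts was 1.24 (0.996 to 1.56).

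LINC-PINT (ENSG00000231721, chr7:130938963-131110176, minus strand, 22 transcripts of 387 to 3505 bases) is a p53-induced RNA that interacts with the Polycomb repressive complex PRC2. Counts were 15, 35, 15 and 22 in siNTC, 20, 61, 17 and 11 with si45, 39, 31, 11 and 27 with si46, and 35, 22, 14 and 24 with si47. Of 12 knockdown libraries 3 were above all controls and 3 below all of them. Means were 3.63 ± 1.36, 4.37 ± 3.34, 4.36 ± 1.70 and 3.98 ± 1.29 CPM in siNTC, si45, si46 and si47, a log2 difference of 0.22 (SE 0.348). Its 312 against 87 counts gave a ratio of 1.17 (0.921 to 1.50). LINC-PINT overlaps MKLN1 on the opposite strand, whose own log2 difference was 0.02 (edgeR adjusted p = 0.937).

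**Figure D2:**
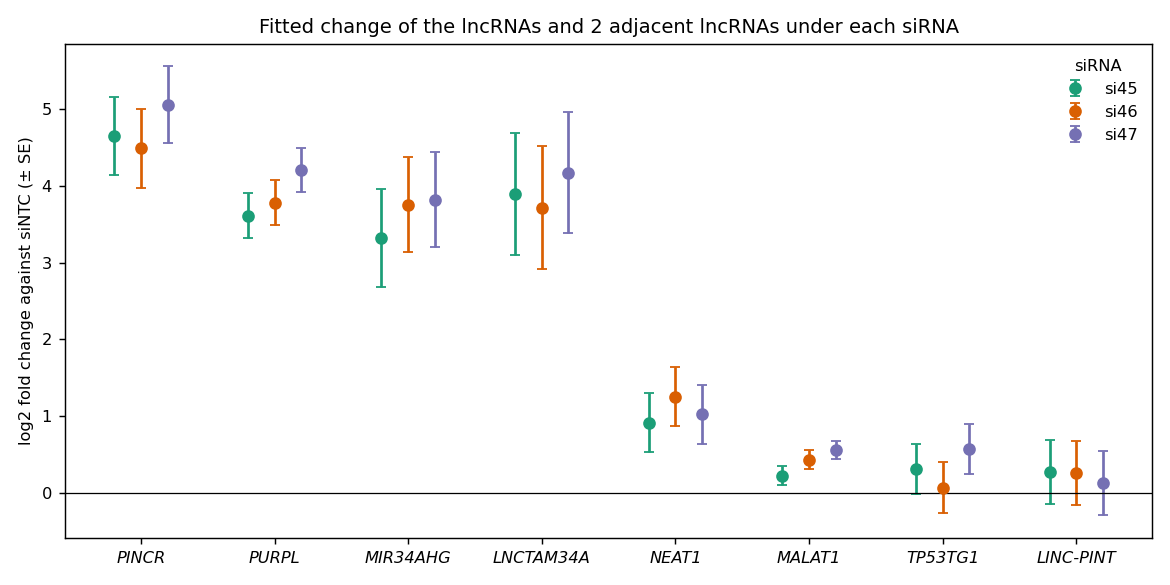
Fitted log2 fold change against siNTC (vertical axis) of the 6 RNAs and of the adjacent RNAs LNCTAM34A and MALAT1 for si45, si46 and si47; points are edgeR estimates and bars ± SE. PINCR, PURPL, MIR34AHG and LNCTAM34A lie between 3.32 and 5.06, NEAT1 between 0.91 and 1.25, and TP53TG1 and LINC-PINT between 0.07 and 0.57.

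Whether the siRNAs differed among themselves was not used in choosing the RNAs and could be tested. Of 18 tests (6 RNAs, 3 pairs of siRNAs), edgeR without a replicate block called 0 after adjustment over all genes. Adjusted p ran from 0.257 to 1, with 1 test at an unadjusted p under 0.05. For comparison, 0.0282% of tested genes were called between si46 and si45, 0.169% between si47 and si45 and 0.0493% between si47 and si46. That 1 test was PURPL, at 28.5 CPM with si47 and 18.8 with si45, a log2 difference of 0.59 (SE 0.212, 95% interval 0.16 to 1.02, edgeR adjusted p = 0.257). The si45 and si47 groups were the only pair whose replicate numbers met the rule for pairing given in the processing section. With the replicate number as a block, which takes that pairing into account, the PURPL difference was 0.60 and passed (edgeR adjusted p = 0.0365). The call for PURPL thus depends on whether the pairing is used. An exact two-sided permutation test of log2(CPM + 1), which ignores the pairing, gave p = 0.114 for PURPL (0.735 adjusted over the 18). With 4 against 4 libraries that test cannot go below 0.0286.

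The intervals of the other differences remained wide. PINCR was 0.57 higher on the log2 scale with si47 than with si46 (−0.09 to 1.22), PURPL 0.43 higher (−0.003 to 0.85), and MIR34AHG 0.50 higher with si47 than with si45 (−0.42 to 1.41). For NEAT1, si46 and si45 differed by 0.34 (−0.48 to 1.16), and for TP53TG1, si47 and si46 by 0.51 (−0.15 to 1.16). In the order of group means, neighbouring siRNA groups overlapped in range for each of the 6 RNAs. The group ranked above siNTC overlapped with it for NEAT1, TP53TG1 and LINC-PINT and not for PINCR, PURPL and MIR34AHG.

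The spread of NEAT1 followed the replicate number. Replicate 2 was the highest of its group in 4 of 4 groups, at 1.38 to 1.70 times the group mean, and replicate 3 the lowest in 3 of 4, at 0.53 to 0.81 times the mean. LINC-PINT was highest in replicate 2 in 3 groups, reaching 2.14 times the mean with si45, and its replicate 3 stood at 0.42 to 0.78 times the mean, the lowest in 2 groups. PURPL was lowest in replicate 3 in siNTC, si45 and si47. MALAT1, a nuclear RNA encoded beside NEAT1, was also lowest in replicate 3 in 3 of 4 groups. TPX2 was highest in replicate 3 with each of its siRNAs, at 121 CPM with si45, 93.8 with si46 and 76.3 with si47, and the part of this in the spread of these RNAs was not tested. The labels do not say what a replicate number shares.

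**Figure D3:**
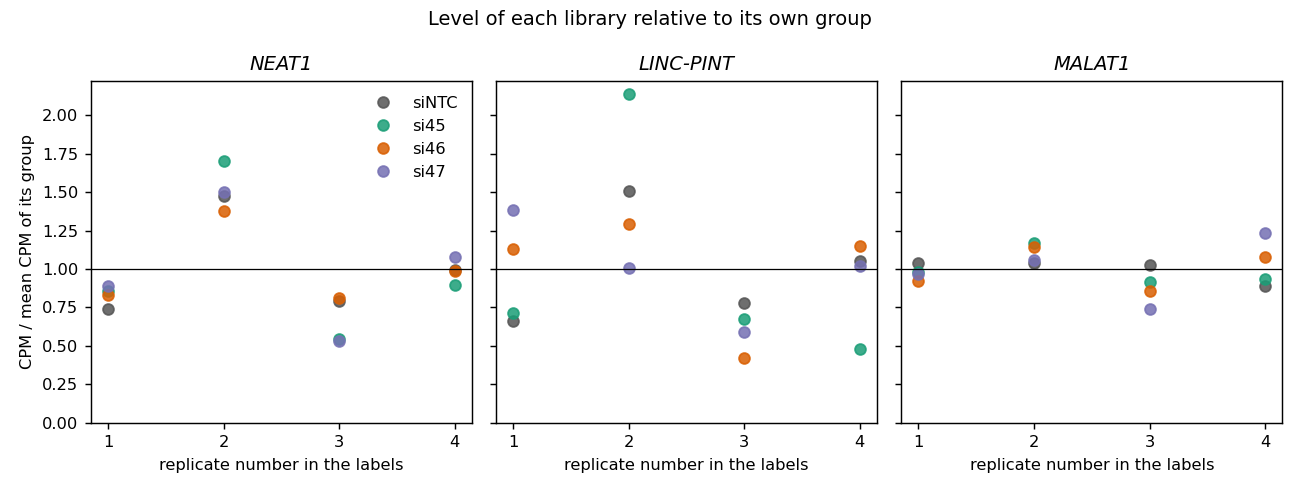
CPM of each library divided by the mean of its own group (vertical axis, no unit, from 0) for NEAT1, LINC-PINT and MALAT1 against the replicate number in the labels (horizontal axis); colours mark the siRNA and the line at 1 the group mean. In the NEAT1 panel replicate 2 is at 1.38 to 1.70 in all 4 groups and replicate 3 at 0.53 to 0.81.

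Most protein-coding targets of p53 rose after TPX2 knockdown. Of 34 listed genes 32 were tested, and 27 rose and 1 fell in the mean of the siRNAs (84.4% and 3.1%). Over all tested genes 3.61% rose and 3.53% fell. The list was chosen with earlier results of these data known, so these shares are no independent evidence. The median log2 difference was 1.24 against −0.001 over all tested genes. By siRNA, 21 rose with si45, 23 with si46 and 29 with si47, and 0, 1 and 1 fell. In the same order 1.01%, 2.14% and 4.91% of all tested genes rose and 0.324%, 1.25% and 4.83% fell. RPS27L, a ribosomal protein paralogue induced by p53, rose by 1.33 (SE 0.085, edgeR adjusted p = 3.06e-13). PHLDA3, a repressor of AKT signalling, rose by 1.79 (SE 0.140, adjusted p = 4.65e-11), and TP53INP1, a p53-induced stress protein, by 1.62 (SE 0.140, adjusted p = 4.79e-10). The gene that fell, named after its value was seen, was TP53I11, by 0.39 on the log2 scale (adjusted p = 0.00205). All 4 of these genes passed under each of the alternative settings.

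Of 9 tested genes in the list of p53 regulators, edgeR called 0 in the mean of the siRNAs, with 1 at an unadjusted p under 0.05. Over all tested genes it called 3.61% higher and 3.53% lower. DESeq2 called 1 regulator and limma-voom 0. MDM4, an inhibitor of p53, differed by 0.06 (edgeR adjusted p = 0.683) and USP7, a deubiquitinase that acts on p53 and MDM2, by −0.19 (adjusted p = 0.0766); USP7 passed without si45 replicate 3, which gave a count of 1. By siRNA, 0 were called with si45 and si46 and 1 with si47 (11.1% lower, against 4.83% of all tested genes). That gene was the deubiquitinase gene USP28, named after its value was seen, which fell by 0.53 (SE 0.176, edgeR adjusted p = 0.0493). MDM2 and PPM1D also regulate p53 but were in the list of coding targets, so the count of 0 leaves them out. In the mean of the siRNAs MDM2 rose by 1.25 (SE 0.122, edgeR adjusted p = 9.52e-07). PPM1D rose by 0.996 (SE 0.117, edgeR adjusted p = 4.35e-07).

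Among 17 further genes listed as non-coding RNAs linked to p53, 11 were tested, 3 rose and 0 fell, with a median of 0.40. These are 27.3% and 0%, against 3.61% and 3.53% of all tested genes. WRAP53, which is in this list, also encodes a protein, and its row was not called (log2 difference −0.44). The 3 that rose were LNCTAM34A, GAS5 and MALAT1. Nothing is read from the LNCTAM34A call, which is a description as given above. Where every library had to hold 10 counts, 2 of 10 tested genes of the list were called higher and 0 lower. GAS5, a growth-arrest RNA that hosts small nucleolar RNAs, rose by 0.51 (SE 0.098, edgeR adjusted p = 0.00102). MALAT1 went from 14735 ± 1066 CPM in siNTC to 17208 ± 1992, 19878 ± 2621 and 21672 ± 4454 CPM with si45, si46 and si47, a rise of 0.40 (SE 0.101, adjusted p = 0.0146) in which all 12 knockdown libraries were above all controls. Without siNTC replicate 4 the MALAT1 adjusted p was 0.0769. DINOL, another p53-induced RNA, was too low to test: it had 0 counts in all control libraries and 7, 11 and 9 counts summed over the libraries of si45, si46 and si47.

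**Figure D4:**
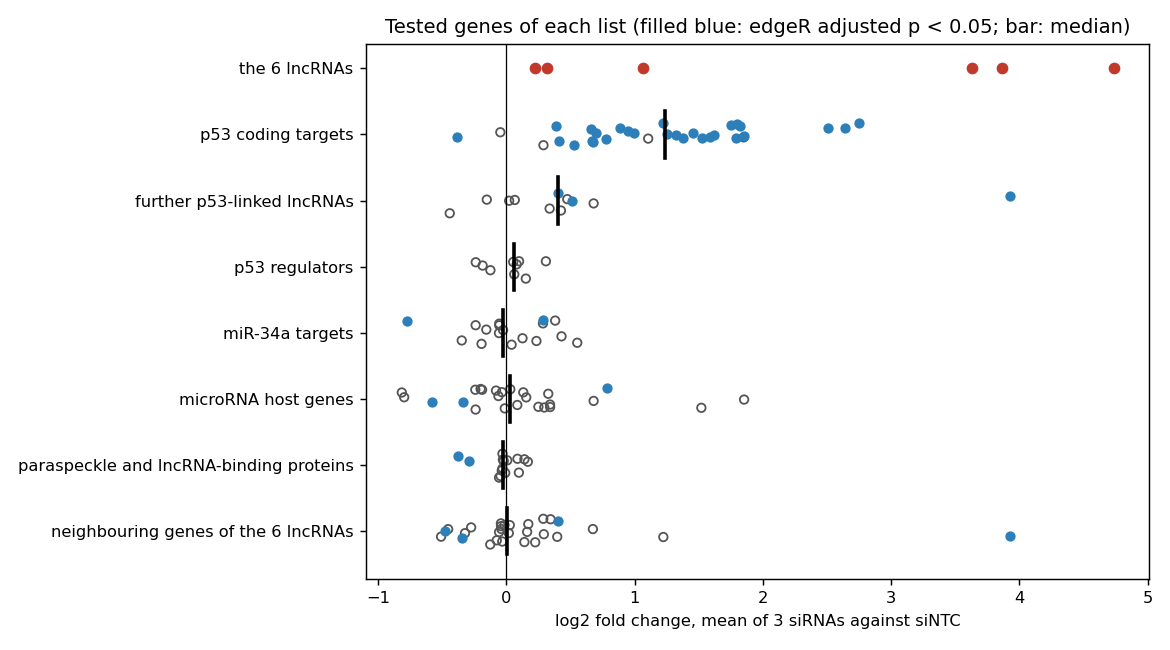
Log2 fold change of every tested gene of each list for the mean of the 3 siRNAs against siNTC (horizontal axis), one row per list; filled blue points passed edgeR's test at an adjusted p under 0.05, open points did not, black bars are medians and red points are the 6 RNAs. Of the p53 coding targets 27 of 32 lie to the right of 0 and passed. In the list of further lncRNAs 3 of 11 did, against 1 of 25 microRNA host genes and 0 of 9 p53 regulators.

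Of 83 microRNA host genes other than MIR34AHG 25 were tested, and 1 rose and 2 fell (4% and 8%), near the 3.61% and 3.53% of all tested genes, with a median log2 difference of 0.03. MIR23AHG, the host of the miR-23a, miR-27a and miR-24 cluster, rose by 0.79 (SE 0.165, edgeR adjusted p = 0.00229). MIR503HG fell by 0.58 (SE 0.149, adjusted p = 0.0126) and MIR9-3HG fell by 0.34 (SE 0.104, adjusted p = 0.0431). MIR503HG lost its call without siNTC replicate 2 or replicate 4, and MIR9-3HG kept its call in 12 of 24 settings. In all 1 gene of the list passed without siNTC replicate 2 and 5 without si47 replicate 3.

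Of 23 listed targets of miR-34a 17 were tested, 1 rose and 1 fell (5.88% each), near the 3.61% and 3.53% of all tested genes, and their median was −0.03. MYB, whose seed match is given above, fell by 0.78 (SE 0.166, edgeR adjusted p = 0.00229). CCND1, which encodes cyclin D1 and had no match of the 7 letters in its longest annotated 3′ UTR, rose by 0.28 (SE 0.071, adjusted p = 0.0105). MYCN, with its pair of matches, differed by 0.38 (SE 0.129, adjusted p = 0.0904). MYCN was higher in all 24 settings and passed in 7 of them, among them DESeq2 and limma-voom, with adjusted p from 0.00657 to 0.232. The count of 2 was 1 without siNTC replicate 1 and 4 without si45 replicate 3 or without si47 replicate 3. With si45, si46 and si47 singly 0, 1 and 0 rose and 0, 1 and 2 fell. Of all tested genes 1.01%, 2.14% and 4.91% rose and 0.324%, 1.25% and 4.83% fell. With si47 the genes that fell were MYB and E2F3. E2F3, named after its value was seen and with 1 seed match, fell by 0.35 with si47 (SE 0.091, edgeR adjusted p = 0.00987). Across the transcriptome, CACTGCC occurred in the longest annotated 3′ UTR (GENCODE 29) of 2152 of 11717 tested coding genes (18.4%). Of genes with a match 3.21% rose and 3.95% fell, with a median of −0.02, and of the 9565 without one 3.15% rose and 4.07% fell, with a median of −0.002. The difference between the 2 sets was not tested.

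Among the genes of proteins that bind these RNAs, the counts of 2 PRC2 subunit genes fell, and protein was not measured. Of 15 tested genes for paraspeckle components and other known partners 0 rose and 2 fell, with a median of −0.03. These are 0% and 13.3%, against 3.61% and 3.53% of all tested genes. With si45, si46 and si47 singly 0, 1 and 2 fell and 0 rose, where 0.324%, 1.25% and 4.83% of all tested genes fell. EZH2, the PRC2 methyltransferase, fell by 0.38 (SE 0.069, edgeR adjusted p = 0.000384) and its partner SUZ12 fell by 0.29 (SE 0.074, adjusted p = 0.011). Without siNTC replicate 1 the SUZ12 adjusted p was 0.0507, which left 1 call. The gene for Matrin 3 has 2 identifiers in the table and was left out.

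Within 250 kb of the 6 RNAs, 28 genes were tested, of which 18 surround NEAT1, 4 each MIR34AHG and TP53TG1, 2 LINC-PINT and 0 PINCR or PURPL. Of these 28, 2 rose and 2 fell (7.14% each, against 3.61% and 3.53% of all tested genes), and their median was 0.002. The 2 that rose were LNCTAM34A and MALAT1, which lies 52.1 kb from NEAT1. Both are also among the further RNAs that rose, so the 2 lists share these calls. Reads of LNCTAM34A and the overlapping MIR34AHG cannot be told apart with certainty. The LNCTAM34A call is a description only, since this RNA passed the low-count filter through knockdown libraries alone. Those that fell were both near NEAT1: LTBP3, a TGF-β binding protein gene 93.3 kb away, fell by 0.48 (SE 0.142, edgeR adjusted p = 0.0323), and POLA2, a DNA polymerase alpha subunit gene 117 kb away, fell by 0.34 (SE 0.109, adjusted p = 0.0482). LTBP3 passed in 17 of 24 settings (adjusted p up to 0.203) and POLA2 in 9 (up to 0.298), which did not include limma-voom. The count of 4 was 1 without siNTC replicate 4, and 2 without siNTC replicate 2, si45 replicate 2, si46 replicate 2 or si47 replicate 4.

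The nearest tested genes on either side of each RNA, overlapping genes aside, were not called. CROT, a peroxisomal carnitine transferase gene 0.166 kb from TP53TG1, differed by 0.22 (edgeR adjusted p = 0.625). Beside NEAT1, FRMD8 at 9.25 kb differed by 0.14 (adjusted p = 0.436) and the pseudogene FAUP4 at 9.72 kb by 1.22 (SE 0.430, adjusted p = 0.0785). Beside MIR34AHG, GPR157 at 18.8 kb differed by 0.40 and H6PD at 35.9 kb by −0.45. PINCR and PURPL are isolated among tested genes, with the nearest ones, MAOA and CDH10, 428 and 2827 kb away at −0.21 and 0.22. CASK and CDH6, on their other sides, differed by 0.15 and −0.25. TMEM243, on the other side of TP53TG1, differed by 0.03, and PODXL and ENSG00000271204, on the sides of LINC-PINT, by 0.39 and −0.06.

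**Figure D5:**
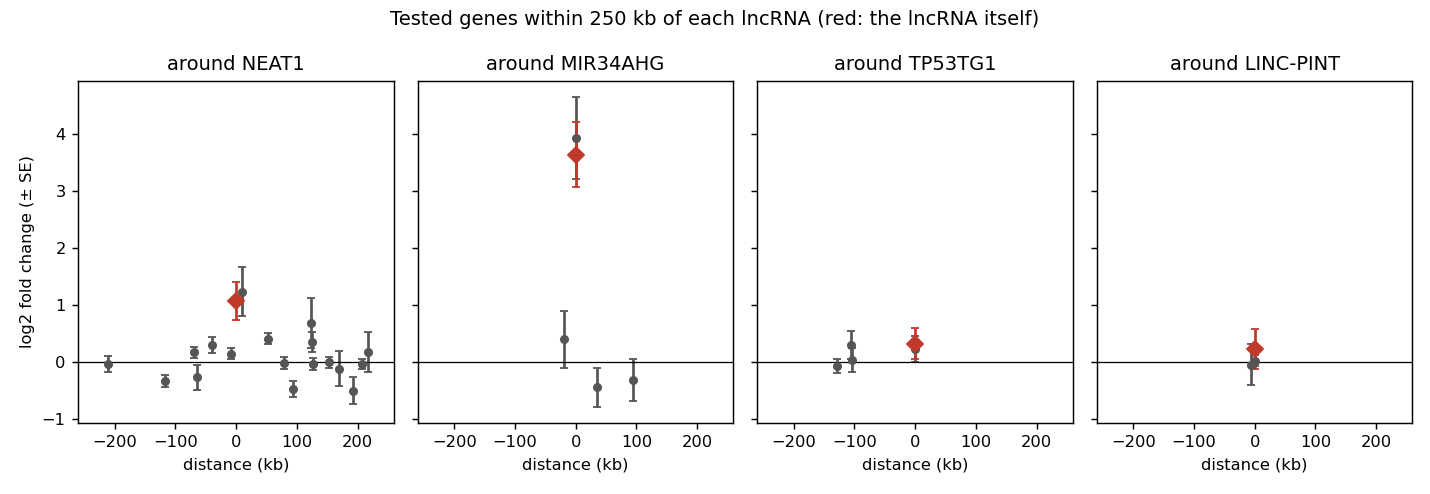
Log2 fold change ± SE for the mean of the 3 siRNAs against siNTC (vertical axis) of every tested gene within 250 kb of NEAT1, MIR34AHG, TP53TG1 and LINC-PINT, by distance in kb from the gene's span (horizontal axis); red diamonds are the RNAs themselves. Around MIR34AHG only the overlapping LNCTAM34A is far from 0, at 3.93, and around NEAT1 MALAT1 lies at 0.40 and the pseudogene FAUP4 at 1.22.

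The genes whose log2 CPM was most like each RNA over the 16 libraries were listed by Pearson's r, as a description, since control and knockdown libraries lie apart for PINCR, PURPL and MIR34AHG and each library's values share its depth. For PINCR they were PLK2 (r = 0.986), ID2 (0.977) and EDA2R (0.974), and for PURPL PLK2 (0.979), RPS27L (0.979) and NECTIN4 (0.975). For MIR34AHG they were TNFRSF10B (0.924), EDA2R (0.924) and a row named U3 (0.923), a small nucleolar RNA with many near-identical copies whose reads are uncertain. For these RNAs the values largely restate the gap between control and knockdown libraries. By deviations from the group means other genes led, RNU6-358P (0.922) for PINCR, PUM2 (0.921) for PURPL and BEND6 (0.863) for MIR34AHG. For NEAT1 the closest were CHGA (0.919), LRATD1 (0.909) and FOSB (0.901). Values were lower for TP53TG1, led by NEFM (0.810), CDC40 (0.788) and KDM5C (0.784), and for LINC-PINT, led by MOGS (0.821), SPATA5L1 (0.821) and LARS1 (0.806).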

How the data were processed

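Total RNA of 16 IMR32 libraries was profiled by 3′ sequencing (QuantSeq, 15 PCR cycles, NextSeq 2000), per the labels. The authors deposited raw counts per gene; the submitters' processing notes name FastQC 0.11.7, STAR 2.7.2b, edgeR 3.36.0, limma 3.50.3 and GRCh38 without their roles, and the read counter, annotation release and use of strand are not given in the sources used here. Counts of 3′ reads were not divided by transcript length, so levels are not compared between genes. Groups came from the labels.

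From the counts, genes were filtered (filterByExpr), scaled by TMM and tested in all 16 libraries with edgeR 4.0.16 (robust quasi-likelihood test, R 4.3.3), with Benjamini-Hochberg adjustment over 14193 genes and a threshold of 0.05. CPM uses the scaled library sizes. Log2 intervals are 95% t intervals. Permutation tests were exact and two-sided on log2(CPM + 1). Annotation, transcripts and neighbours came from GENCODE 29, and promoters and miRNAs from RefSeq (GRCh38.p14). Symbols were matched through the identifier table for 58434 of 58787 identifiers. A simulation from the means of these libraries with 200 genes changed by 1 on the log2 scale recovered 77% of them among 13926 genes for the mean of the siRNAs, with 8 false calls. Its libraries were drawn independently, with no effect shared by replicate number. The changed genes were of all levels, so the 77% does not describe RNAs with few counts.

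The 6 RNAs and all gene lists were chosen with earlier results of these data known, so no list is independent evidence. Named were all 6 RNAs; up to 3 genes with the lowest p per list, or the 2 with most counts where none passed; neighbours that passed or lay nearest; the 3 genes most like each RNA; and TPX2, MYCN and MALAT1. Alternatives were RLE and upper-quartile scaling, DESeq2 1.42.0, limma-voom (limma 3.58.1), other low-count filters, the replicate number as a block, only the groups compared, and leaving out each library. Deviations from the group means correlated positively in all same-number pairs; the numbers were taken as pairing groups where r was over 0.1 in all 4 pairs, which held for si45 and si47 (0.120 to 0.242) and for no other 2 groups. The labels do not say what a number shares.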

Additional observations from a re-analysis of the deposited data

Results flagged for a closer look

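In groups of 4 libraries, 5 of the 40 groups examined had 1 library far from the other 3, where chance alone would give about 2. PURPL was at 31.83 CPM in si46 replicate 2, against 16.96 to 18.63 CPM in the others. MIR34AHG was at 6.242 CPM in si45 replicate 4, against 1.907 to 2.639. LINC-PINT was at 9.327 CPM in si45 replicate 2, against 2.081 to 3.105. TPX2 was at 121 CPM in si45 replicate 3, against 79.35 to 85.12. MALAT1 was lower in siNTC replicate 4, at 1.314e+04 CPM against 1.516e+04 to 1.534e+04 in the other control libraries.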

How the results depend on the processing

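The log2 differences of the 6 RNAs from siNTC kept their sign under the alternatives that gave a value, LINC-PINT aside: PINCR ran from 4.49 to 5.15, PURPL from 3.78 to 3.93, MIR34AHG from 3.25 to 4.05, NEAT1 from 0.94 to 1.31, TP53TG1 from 0.12 to 0.53 and LINC-PINT from −0.01 to 0.50. PINCR, PURPL and MIR34AHG have no value where every library must hold 10 counts. NEAT1 was not called as reported (edgeR adjusted p = 0.0787) and passed in 5 of 24 settings, with adjusted p from 3.76e-05 to 0.219. Those were DESeq2, limma-voom, the replicate block, and leaving out si45 replicate 3 or si47 replicate 3. With si45, si46 and si47 singly NEAT1 passed in 1, 3 and 2 settings, each time including the block. These values belong to the contrast that chose the RNAs and are a description. The p53 coding targets called were 27 to 30 in every setting, 28 as reported. With the replicate block, 5 further p53-linked RNAs were called in place of 3, 6 miR-34a targets (3 higher, 3 lower) in place of 2, 1 p53 regulator in place of 0 and 1 difference between siRNAs in place of 0; the pseudogene FAUP4 beside NEAT1 also passed (edgeR adjusted p = 0.0323), and 14 of 16 libraries correlated best with their own number. DESeq2 called 4 miR-34a targets and 1 regulator, no low-count filter gave 4 miR-34a targets, and 10 counts in every library left 2 neighbouring genes in place of 4. Leaving out one library at a time gave 2 to 4 further RNAs, 1 to 5 microRNA host genes, 1 to 4 miR-34a targets, 1 to 2 binding proteins, 0 to 1 regulators, 1 to 4 neighbouring genes and 0 to 0 differences between siRNAs. The cause of these changes was not tested. Control counts of 0 to 10 limit the size of the PINCR, PURPL and MIR34AHG ratios.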
